A study of Mus musculus with 6 samples.

Results

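The genes described here encode the machinery that sits at and just behind the T cell receptor. They were taken from a list of 38 symbols, drawn up by role with earlier results of these data known. Of these, 37 had a probe set among the 19505 genes of the array, each with a single probe set, and *Lck* was not analysed here. The measured genes comprised 25 activators, 9 negative regulators and 3 genes with both activating and inhibiting roles. The cells were CD4+YFP+ regulatory T (Treg) cells sorted from peripheral lymph nodes and spleens of females aged 8 to 12 weeks. *Rbx1*&*Sag*-deficient cells came from mice with *Foxp3* Cre/wt and with both *Rbx1* and *Sag* floxed on each allele (fl/fl), and control cells from *Foxp3* Cre/wt mice, with 3 Clariom S arrays per genotype and 1 pool of 2 to 3 mice on each array. All mice of both genotypes carried a single *Foxp3* YFP-Cre allele, in which the *Foxp3* locus drives YFP and Cre. Because *Foxp3* is X-linked, these females also hold Treg cells without Cre, which the sort on YFP leaves out. The word muscle stands in the sample titles, although both the cell type label and the protocol give Treg cells.

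The T cell receptor has no kinase of its own. The CD3 chains and the ζ chain, encoded by *Cd247*, carry tyrosine motifs that *Lck* phosphorylates with the help of the coreceptor CD4. *Zap70* docks on these motifs and phosphorylates the scaffolds *Lat* and *Lcp2*, on which adaptors, exchange factors and phospholipase C assemble. Calcium, Ras and NF-κB signalling follow. A second set of proteins holds this chain back, and some of them do so by degrading or dephosphorylating its parts. Treg cells depend on receptor signals for their function, and the balance between the activating and the restraining proteins sets how strongly they respond.

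Values are the deposited log2 signals, so that a difference of 1 is a 2-fold change. The arrays differed in the shape of their distributions, with upper quartiles of 6.93 to 7.37 in *Rbx1*&*Sag*-deficient and 7.68 to 7.81 in control arrays, and medians of 4.13 to 4.32 against 4.0 to 4.11. Arrays correlated at 0.976 to 0.983 within *Rbx1*&*Sag*-deficient and at 0.992 to 0.993 within control cells. *Rbx1*, one of the targeted genes and a core part of cullin-RING ubiquitin ligases, read 5.04, 5.53 and 5.84 in *Rbx1*&*Sag*-deficient arrays and 9.26, 10.08 and 9.80 in control arrays (difference -4.24, SE 0.30, limma adjusted p = 0.000237). *Sag*, listed on the array as *Rnf7*, read 10.94, 11.39 and 9.65 against 11.47, 11.29 and 10.93 in control arrays (-0.57, SE 0.41, adjusted p = 0.379). Whether the *Rnf7* probe set lies in the deleted part is not given in the sources used here. *Foxp3* was not analysed here. Among 5 other Treg markers 3 fell, beside 9.49% of all genes and 18.3% of those above the median signal. These were *Tnfrsf18* (-1.81), *Tnfrsf4* (-1.77) and *Ikzf2* (-1.54). *Ctla4* (-0.68, limma adjusted p = 0.230) and *Il2ra* (-0.13, adjusted p = 0.749) were not called. The summed level (log2 of the summed linear signals) was 16.39 to 17.07 in *Rbx1*&*Sag*-deficient and 18.20 to 18.36 in control arrays. It mostly reflects *Tnfrsf4*, the brightest, at 17.46 to 17.50 in control arrays. Of the marker lists of other cells, that of natural killer cells summed to 5.74 to 6.67 against 7.67 to 8.45 in control arrays (2 of 5 lower, *Ncr1* near background at 2.67 to 3.24). The B cell list summed to 6.18 to 6.34 against 7.31 to 7.51 (1 of 5 lower). *Cd79b* fell by 1.81 while *Cd79a* differed by -0.04, *Ms4a1* by 0.37 and *Pax5* by 0.42. *Cd79a*, *Ms4a1* and *Pax5* read 2.60 to 3.96 over the arrays, below the array medians and near background. The myeloid list summed to 6.10 to 6.26 against 6.60 to 7.62, where *Spi1*, *Lyz2* and *Fcer1g* fell (3 of 7 lower). Of the 7, 5 lay entirely below the control arrays and 2 entirely above (19.7% and 15.2% of all genes). *Csf1r* and *Tyrobp* differed by -0.58 and -0.30, below the control arrays without overlap but not called. They read 3.26 to 4.26 and 2.80 to 3.18 over all arrays, also low. *Itgam* and *Adgre1* differed by 0.48 and 0.31, above the control arrays without overlap but not called. *Itgam* and *Adgre1* read 2.88 to 3.95 over all arrays, below the array medians and near background. So did *Spi1*, *Lyz2* and *Fcer1g* in the *Rbx1*&*Sag*-deficient arrays, at 2.60 to 3.78. The CD8 T cell list summed to 8.48 to 9.12 against 8.50 to 8.93 (0 of 2 called), the muscle list to 6.33 to 6.39 against 6.51 to 6.52 (0 of 5) and the erythroid and platelet list to 6.62 to 7.12 against 6.25 to 6.77 (0 of 4). The part these shifts have in the results below was not tested. In bulk RNA, fewer cells of a type and less RNA per cell cannot be told apart.

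Promoter sequence was at hand for 28 of the 37 measured genes in the RefSeq table of GRCm38.p6, and for 5 of the 8 that passed the test below. Shown here are the stretches just upstream of *Cd3g* and *Cd3d*, neighbours on opposite strands that fell together, and of *Sla2* and *Ubash3a*, which fell most among the negative regulators in the table. *Cd3g* lies at chr9:44980432-44980681 on the minus strand, *Cd3d* at chr9:44981536-44981768 on the plus strand, *Sla2* at chr2:156887251-156887471 on the minus strand and *Ubash3a* at chr17:31207816-31207867 on the plus strand. Each runs 5′ to 3′ along its gene, and capitals mark matches, on either strand, to the letters TGTGGT (RUNX), GGAAG (ETS) or TGANTCA (AP-1), which do not overlap here.
Cd3g: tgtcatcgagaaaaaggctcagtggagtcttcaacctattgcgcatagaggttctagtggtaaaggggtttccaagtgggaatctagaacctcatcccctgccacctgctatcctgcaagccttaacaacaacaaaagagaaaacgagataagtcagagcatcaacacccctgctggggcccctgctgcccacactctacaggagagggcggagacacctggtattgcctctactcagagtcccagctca
Cd3d: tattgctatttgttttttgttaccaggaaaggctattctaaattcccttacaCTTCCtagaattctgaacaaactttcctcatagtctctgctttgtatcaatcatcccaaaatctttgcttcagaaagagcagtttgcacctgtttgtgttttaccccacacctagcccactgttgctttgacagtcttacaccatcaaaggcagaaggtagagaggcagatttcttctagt
Sla2: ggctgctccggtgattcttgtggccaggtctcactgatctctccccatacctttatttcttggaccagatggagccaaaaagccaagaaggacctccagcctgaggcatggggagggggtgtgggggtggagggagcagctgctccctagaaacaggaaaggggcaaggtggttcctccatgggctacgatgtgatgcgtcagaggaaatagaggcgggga
Ubash3a: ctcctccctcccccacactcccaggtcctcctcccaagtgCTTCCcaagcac
A single match to the ETS letters stood in the *Cd3d* stretch and another in that of *Ubash3a*, and the other stretches held none of the 3 motifs. The stretches run over 52 to 250 bases, since the part inside the gene was left out, and are in part shorter than the windows counted next. Over the 250 bases before each start, the ETS letters were present in 27 of 40 windows of the measured genes and in 64.1% of 32851 windows of all genes. The RUNX letters were present in 5 of 40 windows and in 14.0% of all, and the AP-1 letters in 0 of 40 and in 6.7% of all. In the 6 windows of genes that passed the test, the ETS letters were present in 3, the RUNX letters in 1 and the AP-1 letters in 0. These are matches of letters and not binding sites.

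Of the 37 genes, 8 were lower and 0 higher in *Rbx1*&*Sag*-deficient Treg cells (limma, adjusted p under 0.05), and 1 was higher at an unadjusted p under 0.05. Those lower were the negative regulators *Sla*, *Sla2* and *Ubash3a*, the surface protein *Thy1*, the coreceptor *Cd4*, the receptor chains *Cd3d* and *Cd3g*, and the adaptor *Nck1*. Across all genes 9.49% were lower and 2.7% higher. All 37 genes lay above the median signal, where 18.3% of 9747 genes were lower and 3.02% higher, so that the 21.6% of the listed genes that fell was near the share among genes above the median. The listed genes were brighter than that set as a whole, with 23 of the 37 at a percentile over 90 in all arrays, and were not matched to it on signal. The *Rbx1*&*Sag*-deficient arrays lay entirely below the control arrays for 13 of the 37 genes (19.7% of all genes and 35.7% of the brighter ones) and entirely above for 1 (15.2% and 8.48%). The median difference of the 37 genes was -0.54, beside 0.04 over all genes and -0.40 over genes above the median signal. It was -0.067 after quantile normalization and -0.056 after cyclic loess, where the brighter genes had medians of 0.0061 and -0.0041. With arrays centred on brighter genes the median of the 37 genes was 0.053, beside 0.20 for the brighter genes and 0.64 for all genes. As deposited, the difference was negative for 30 of 37 genes, and for 70.2% of the 9747 genes above the median signal.

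**Figure D1:**
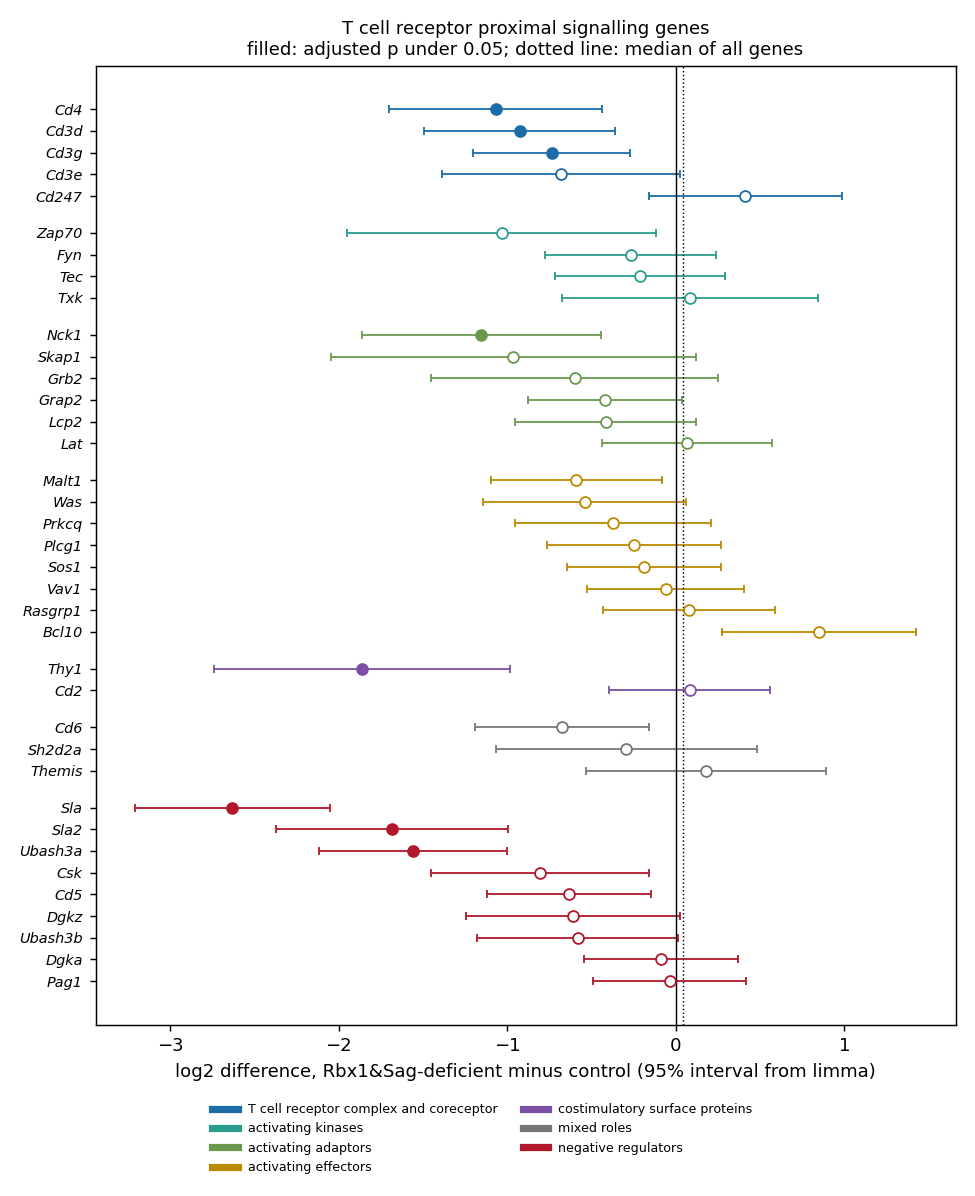
Log2 difference in signal, *Rbx1*&*Sag*-deficient minus control (x axis), of the 37 measured genes (y axis) by role, with 95% intervals from limma over 3 arrays per genotype; filled points passed an adjusted p of 0.05 and the dotted line is the median of all genes. The 8 filled points all lie below 0, with *Sla* at -2.63, and the kinases and effectors hold none.

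Among activators 5 of 25 fell (20.0%) and 0 rose, with a median difference of -0.42. Among negative regulators 3 of 9 fell (33.3%) and 0 rose, with a median of -0.63. Of all genes 9.49% fell and 2.7% rose, and of those above the median signal 18.3% fell and 3.02% rose. All 9 negative regulators had a lower mean in *Rbx1*&*Sag*-deficient cells as deposited. *Pag1* turned to 0.55 after quantile normalization, and *Pag1* and *Dgka* to 0.51 and 0.069 after cyclic loess. *Pag1*, *Dgka* and *Ubash3b* turned to 0.56, 0.50 and 0.01 where arrays were centred on brighter genes. As deposited, the *Rbx1*&*Sag*-deficient arrays lay entirely below the control arrays for 5 of the 9 (19.7% of all genes and 35.7% of the brighter ones). The median of the activators was 0.005 after quantile normalization, -0.042 after cyclic loess and 0.18 with arrays centred on brighter genes, and that of the negative regulators was -0.26, -0.31 and -0.04. The difference between activators and negative regulators was not tested. The falls of the activators lay in the receptor complex and coreceptor (3 of 5), the adaptors (1 of 6) and the costimulatory surface proteins (1 of 2), with 0 of 4 kinases and 0 of 8 effectors called.

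*Sla* and *Sla2* encode Src-like adaptor proteins, which bring the ubiquitin ligase Cbl to the receptor chains and lower their amount at the surface. *Sla* read 10.69, 11.01 and 10.25 in *Rbx1*&*Sag*-deficient arrays, against 13.40, 13.04 and 13.41 in control arrays. The groups lay about 2 log2 units apart at their nearest values, and the mean was 10.65 ± 0.38 in *Rbx1*&*Sag*-deficient and 13.28 ± 0.21 in control cells (SD, n = 3 each). This is a 6.20-fold fall (difference -2.63, SE 0.26, adjusted p = 0.000713 from limma), and 0.59% of all genes had a lower difference. *Sla* moved to the 91.3 to 92.1 percentile of its array in *Rbx1*&*Sag*-deficient cells, against the 96.5 to 97.0 percentile in control cells. It lies within the span of *Tg*, the thyroglobulin gene, whose own probe set read 4.28 to 4.98 in *Rbx1*&*Sag*-deficient and 3.64 to 4.34 in control arrays (0.76, SE 0.28, adjusted p = 0.104). *Sla2* read 8.87, 8.67 and 7.94 in *Rbx1*&*Sag*-deficient arrays, against 10.25, 9.77 and 10.51 in control arrays. Its groups did not overlap, and it fell 3.21-fold (-1.68, SE 0.31, adjusted p = 0.0108 from limma).

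The Sts proteins, encoded by *Ubash3a* and *Ubash3b*, restrain signalling through *Zap70*. *Ubash3a* read 8.64, 9.22 and 8.95 in *Rbx1*&*Sag*-deficient arrays, against 10.19, 10.64 and 10.66 in control arrays. The 2.95-fold fall (-1.56, SE 0.25, adjusted p = 0.00632 from limma) left a gap between the groups. *Ubash3b*, its paralogue with the stronger phosphatase activity, read 10.18, 9.79 and 9.45 in *Rbx1*&*Sag*-deficient arrays and 10.56, 10.56 and 10.05 in control arrays. Its groups overlapped and its difference of -0.58 did not pass the test (SE 0.26, adjusted p = 0.174).

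**Figure D2:**
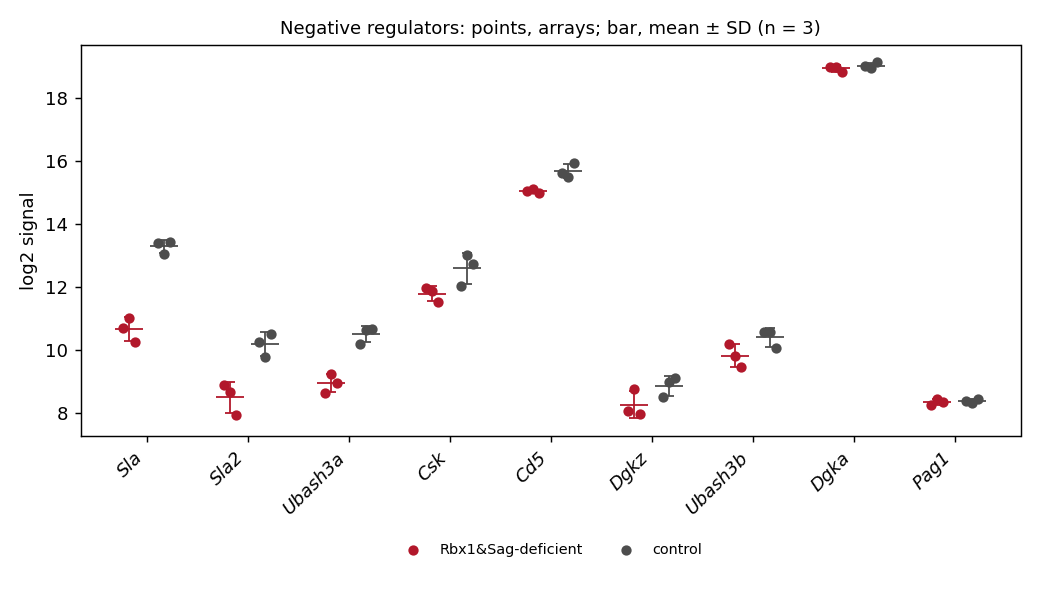
Log2 signal (y axis) of the 9 negative regulators (x axis) in each *Rbx1*&*Sag*-deficient (red, left) and control (grey, right) array, with bars at the mean ± SD (n = 3 each). The red points of *Sla*, *Sla2* and *Ubash3a* lie well below the grey points, and those of *Dgka* and *Pag1* lie among them.

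The kinase *Csk*, which phosphorylates the inhibitory tyrosine of *Lck* and *Fyn*, read 11.96, 11.87 and 11.51 in *Rbx1*&*Sag*-deficient arrays, against 12.04, 13.00 and 12.72 in control arrays. The groups did not overlap, with a gap of under 0.1 between their nearest arrays, and the difference of -0.81 did not pass the test (SE 0.29, adjusted p = 0.0973). *Pag1*, the membrane anchor of *Csk*, read 8.25, 8.45 and 8.33 against 8.37, 8.32 and 8.45 in control arrays. Its difference was -0.04, with a 95% interval of -0.49 to 0.42. *Cd5*, a surface receptor that dampens the signal and whose level follows its strength, read 15.05, 15.12 and 14.98 in *Rbx1*&*Sag*-deficient arrays and 15.63, 15.49 and 15.93 in control arrays. The groups did not overlap and the difference was -0.63 (SE 0.22, adjusted p = 0.0865).

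Diacylglycerol kinases remove the diacylglycerol that turns on *Rasgrp1* and *Prkcq*. *Dgka* read 19.00, 19.00 and 18.82 in *Rbx1*&*Sag*-deficient arrays and 19.01, 18.95 and 19.13 in control arrays. These values lie close to the highest of each array, 19.59 to 19.72 in *Rbx1*&*Sag*-deficient and 19.92 to 19.93 in control arrays, and the difference was -0.09 (adjusted p = 0.799). *Dgkz* read 8.04, 8.74 and 7.96 against 8.50, 8.96 and 9.11 in control arrays, with overlap between the groups (-0.61, SE 0.28, adjusted p = 0.181).

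Of the 4 chains that carry the receptor's tyrosine motifs 2 passed the test. *Cd3d* read 15.47, 16.06 and 15.28 in *Rbx1*&*Sag*-deficient arrays, against 16.63, 16.44 and 16.52 in control arrays (1.90-fold lower, -0.93, SE 0.25, adjusted p = 0.0443 from limma). *Cd3g* read 16.38, 16.28 and 16.07 against 16.94, 16.94 and 17.06 in control arrays (1.67-fold lower, -0.74, SE 0.21, adjusted p = 0.0485). Both had every *Rbx1*&*Sag*-deficient array below every control array. *Cd3e*, their neighbour on chromosome 9, read 17.36, 17.90 and 16.71 in *Rbx1*&*Sag*-deficient arrays and 18.01, 17.77 and 18.24 in control arrays. *Rbx1*&*Sag*-deficient replicate 2 lay above the lowest control array, and the difference of -0.68 did not pass the test (SE 0.31, adjusted p = 0.178). Without that replicate it was -0.97 (adjusted p = 0.0473 from limma), where 13.4% of all genes were lower, beside 9.49% with all arrays. *Cd3e* was called in only this 1 of 17 alternatives. With any other single array left out its adjusted p was 0.260 to 0.406. *Cd247*, the ζ chain, read 13.93, 13.70 and 13.94 in *Rbx1*&*Sag*-deficient arrays and 13.70, 12.98 and 13.65 in control arrays. Its mean was higher by 0.41, with a 95% interval of -0.16 to 0.99 that includes 0. The differences between the 4 chains were not tested against each other.

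*Cd4*, the coreceptor that brings *Lck* to the receptor, read 14.10, 13.56 and 13.13 in *Rbx1*&*Sag*-deficient arrays, against 14.42, 14.77 and 14.81 in control arrays. The groups did not overlap (2.10-fold lower, -1.07, SE 0.28, adjusted p = 0.0400 from limma). The cells of both genotypes had been sorted on CD4 protein. Of the costimulatory surface proteins, *Thy1*, a glycolipid-anchored protein of T cells, read 12.98, 14.24 and 12.85 in *Rbx1*&*Sag*-deficient arrays, against 15.34, 14.73 and 15.58 in control arrays. It fell 3.63-fold (-1.86, SE 0.39, adjusted p = 0.0183 from limma) and was the activator with the lowest difference, although *Rbx1*&*Sag*-deficient replicate 2 lay within 0.5 of the lowest control array. *Cd2*, the adhesion receptor that strengthens the contact with other cells, read 15.27, 15.34 and 15.21 against 15.13, 15.02 and 15.42 in control arrays (0.08, adjusted p = 0.824).

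**Figure D3:**
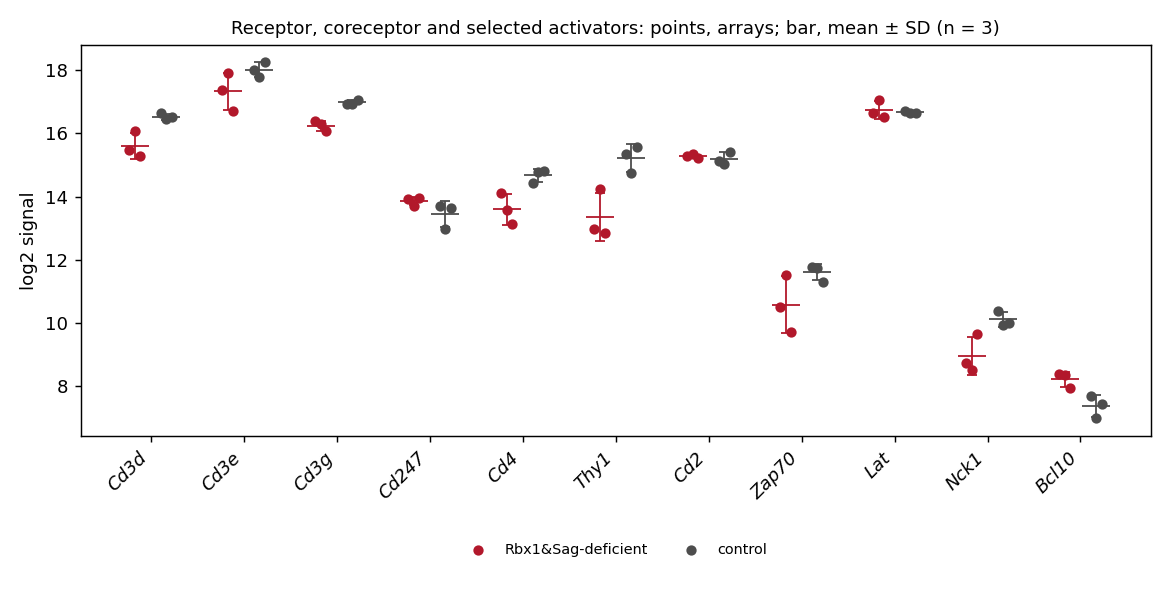
Log2 signal (y axis) of the receptor chains, the coreceptor and selected activators (x axis) in each *Rbx1*&*Sag*-deficient (red, left) and control (grey, right) array, with bars at the mean ± SD (n = 3 each). *Thy1*, *Cd4*, *Cd3d* and *Cd3g* are lower in the red arrays, *Cd2* and *Lat* overlap, and *Bcl10* is higher without passing the test.

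No activating kinase passed the test. *Zap70* read 10.50, 11.51 and 9.72 in *Rbx1*&*Sag*-deficient arrays and 11.77, 11.75 and 11.31 in control arrays. The spread was 0.90 in *Rbx1*&*Sag*-deficient and 0.26 in control arrays (SD, n = 3 each), and replicate 2 of the *Rbx1*&*Sag*-deficient arrays fell among the control arrays. Its difference was -1.03 (SE 0.41, adjusted p = 0.126). It reached -1.50 without that replicate (adjusted p = 0.0146 from limma), where 13.4% of all genes were lower, beside 9.49% with all arrays. *Zap70* was called in only this 1 of 17 alternatives. With any other single array left out its adjusted p was 0.197 to 0.307. *Fyn*, the Src family kinase that acts beside *Lck*, and the Tec family kinases *Tec* and *Txk* had differences of -0.27, -0.21 and 0.08 (adjusted p = 0.455 to 0.891). *Tec* read 4.91 to 5.21 in *Rbx1*&*Sag*-deficient and 5.05 to 5.52 in control arrays, not far above the medians of the arrays.

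The adaptor *Lat*, the membrane scaffold that *Zap70* phosphorylates, read 16.65, 17.06 and 16.51 in *Rbx1*&*Sag*-deficient arrays and 16.72, 16.65 and 16.65 in control arrays. Its groups overlapped and its difference was 0.07, with a 95% interval of -0.44 to 0.57. *Nck1*, which links the receptor to the actin cytoskeleton, read 8.73, 8.51 and 9.64 in *Rbx1*&*Sag*-deficient arrays, against 10.38, 9.95 and 10.01 in control arrays. All *Rbx1*&*Sag*-deficient arrays lay below the control arrays (2.22-fold lower, -1.15, SE 0.31, adjusted p = 0.0443 from limma). *Grap2*, which ties *Lcp2* to *Lat*, did not overlap between the groups but did not pass the test (-0.42, adjusted p = 0.200). *Lcp2* itself differed by -0.42 (adjusted p = 0.271), *Grb2*, which brings in the exchange factor *Sos1*, by -0.60 (adjusted p = 0.316), and *Skap1*, which acts in adhesion through integrins, by -0.96 with a wide error (SE 0.48, adjusted p = 0.211).

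Of the 8 effectors, 6 had a negative difference and 0 were called. *Bcl10* and *Malt1*, partners in the complex that links protein kinase C θ to NF-κB, had differences of opposite sign as deposited, whereas that of *Malt1* was 0.012 after quantile normalization. *Bcl10* read 8.38, 8.34 and 7.94 in *Rbx1*&*Sag*-deficient arrays, against 7.69, 6.98 and 7.44 in control arrays, and was the only one of the 37 genes with the *Rbx1*&*Sag*-deficient arrays entirely above the control arrays. The difference of 0.85 just missed the test (SE 0.26, unadjusted p = 0.0087, adjusted p = 0.0617 from limma). *Malt1* read 8.16, 7.94 and 8.04 in *Rbx1*&*Sag*-deficient arrays and 8.52, 8.95 and 8.44 in control arrays, also without overlap (-0.59, SE 0.23, adjusted p = 0.117). The change of *Bcl10* against that of *Malt1* was not tested. *Prkcq*, which encodes protein kinase C θ, *Plcg1*, the phospholipase that makes diacylglycerol, the Rac exchange factor *Vav1*, and *Sos1* and *Rasgrp1*, which activate Ras, had differences of -0.37 to 0.08 (adjusted p = 0.360 to 0.873). *Was*, a regulator of actin, read 3.76, 4.37 and 3.76 in *Rbx1*&*Sag*-deficient arrays and 4.15, 4.78 and 4.58 in control arrays, around the medians of the arrays, where background limits what can be read (-0.54, adjusted p = 0.208).

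Of the 3 genes with mixed roles 0 were called. *Cd6*, a relative of *Cd5*, read 11.87, 12.01 and 11.78 in *Rbx1*&*Sag*-deficient arrays, against 12.27, 12.56 and 12.85 in control arrays, without overlap (-0.67, SE 0.23, adjusted p = 0.0867). *Sh2d2a*, an adaptor that binds *Lck*, differed by -0.29 (adjusted p = 0.600), and *Themis*, a regulator of receptor signal strength in thymocytes, by 0.18 (adjusted p = 0.738).

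The 20 activators that were not called had 95% intervals reaching 0.457 to 1.08 to either side of the difference. These intervals are not adjusted for the number of genes tested. Even a change of more than 2-fold in a single gene may go uncalled, as for *Zap70* (2.05-fold lower, adjusted p = 0.126 from limma). The median SD of the 37 genes was 0.29 in *Rbx1*&*Sag*-deficient and 0.237 in control arrays. *Rbx1*&*Sag*-deficient replicate 2 was the highest of its group for 23 of the 37 genes (62.2%, beside 47.1% among genes brighter than the median), and replicate 3 the lowest for 24 (64.9%, beside 48.2%). Control replicate 2 was the lowest of its group for 20 genes (54.1%, beside 27.9%) and control replicate 3 the highest for 19 (51.4%, beside 30.4%). The median signal of the 37 genes was 11.87, 12.01 and 12.00 in the *Rbx1*&*Sag*-deficient arrays and 12.27, 12.80 and 12.85 in the control arrays.

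**Figure D4:**
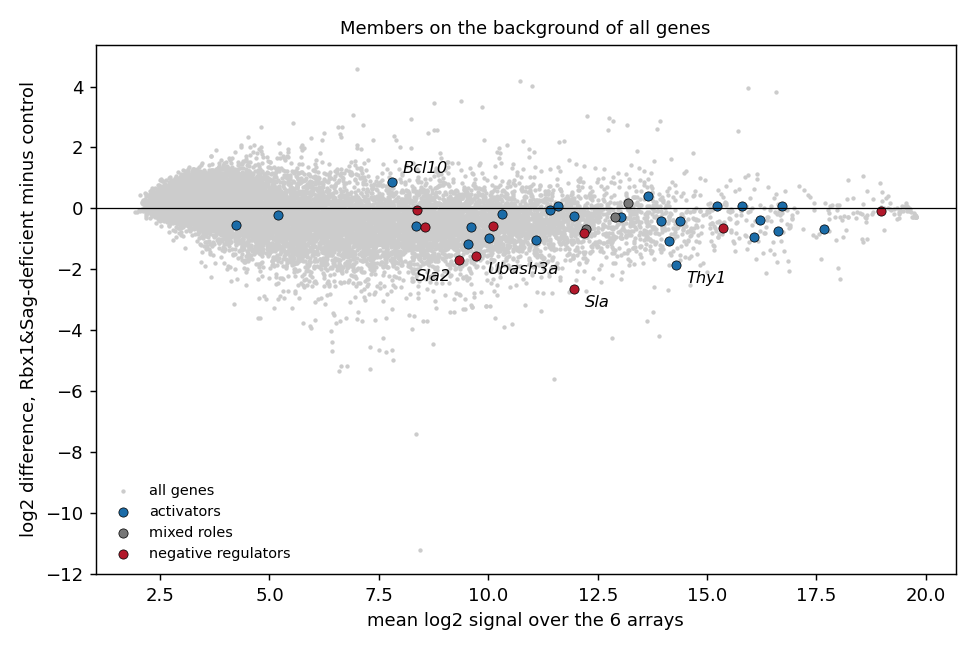
Log2 difference, *Rbx1*&*Sag*-deficient minus control (y axis), against the mean log2 signal over the 6 arrays (x axis) for all 19505 genes (light grey) and for the activators, genes with mixed roles and negative regulators (coloured points). Genes above the median signal lean below 0, with a median of -0.40, and *Sla*, *Sla2*, *Ubash3a* and *Thy1* lie further down than most coloured points.

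Paralogues were compared by the difference of their log2 values within each array, which cancels any shift common to the array. Of the 6 pairs 0 passed after adjustment, and with 3 arrays per genotype the smallest p of the exact two-sided permutation test is 0.1. *Ubash3a* minus *Ubash3b* was -1.54, -0.57 and -0.50 in *Rbx1*&*Sag*-deficient arrays and -0.37, 0.08 and 0.61 in control arrays (change -0.98, exact p = 0.1, adjusted p = 0.3). *Sla2* minus *Sla* was -1.82, -2.34 and -2.31 in *Rbx1*&*Sag*-deficient arrays and -3.15, -3.27 and -2.90 in control arrays (change 0.95, exact p = 0.1, adjusted p = 0.3). The groups did not overlap in either pair. *Dgkz* against *Dgka* changed by -0.52 (exact p = 0.2, adjusted p = 0.4). *Tec* against *Txk* (-0.30), *Grb2* against *Grap2* (-0.18) and *Cd6* against *Cd5* (-0.04) had adjusted p = 0.8 each from the same exact test. The RefSeq order places *Cd5* beside *Cd6* on chromosome 19 and *Txk* beside *Tec* on chromosome 5. *Cd5* and *Cd6* differed between the genotypes by -0.63 and -0.67.

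The scaling of the arrays bore on the smaller falls. After quantile normalization on top of the deposited values 3 of the 37 genes were lower and after cyclic loess 4, with 3.76% and 4.49% of all genes lower. The share among genes above the median signal, where all 37 lay, was not counted after rescaling. *Sla* (-2.19, adjusted p = 0.0015 after quantile normalization, and -2.16, adjusted p = 0.000828 after cyclic loess), *Ubash3a* (-1.04, 0.0352, and -1.03, 0.0311) and *Thy1* (-1.46, 0.0368, and -1.49, 0.0273) passed both. *Sla2* passed after cyclic loess (-1.14, adjusted p = 0.0379) and missed after quantile normalization (-1.13, adjusted p = 0.0509). *Cd3d*, *Cd3g*, *Cd4* and *Nck1* passed neither, with differences of -0.69 to -0.40 and adjusted p = 0.104 to 0.386. *Bcl10* passed both, at 1.43 (adjusted p = 0.0161) after quantile normalization and 1.39 (adjusted p = 0.0123) after cyclic loess. With each array left out in turn, *Sla* and *Ubash3a* were called in 6 of 6 fits, *Sla2* in 5 of 6, *Thy1* in 3 of 6, *Cd3d*, *Cd4* and *Nck1* in 1 of 6 each and *Cd3g* in 0 of 6. All 8 genes kept a negative difference in each of the 17 alternatives run. Only the alternatives that rescaled the arrays could have turned a sign. The others left the difference itself unchanged, or dropped or weighted arrays of groups that did not overlap.

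**Figure D5:**
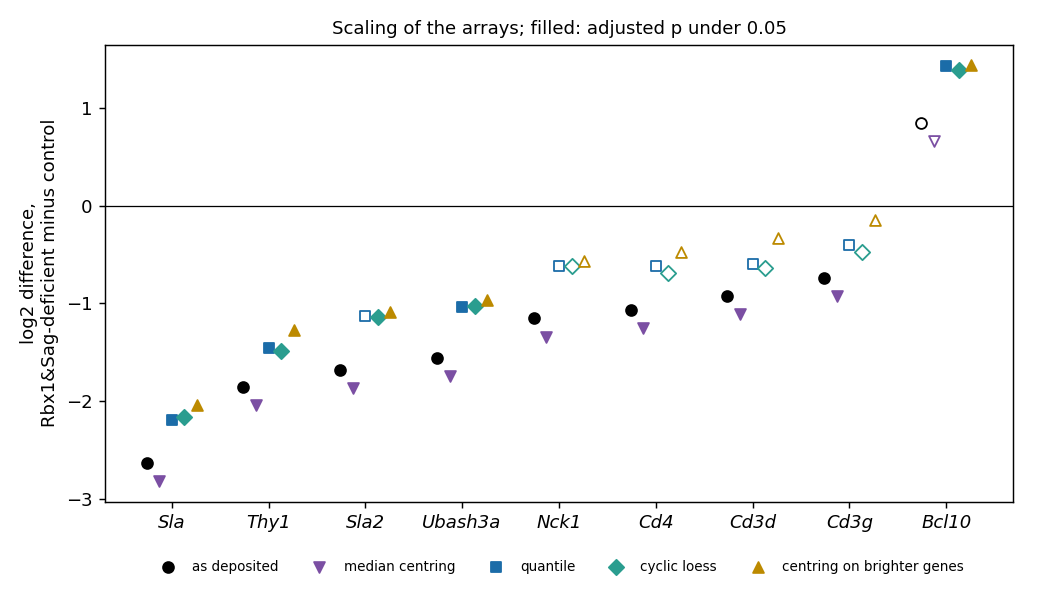
Log2 difference, *Rbx1*&*Sag*-deficient minus control (y axis), of the 8 genes that passed the test and of *Bcl10* (x axis) with the values as deposited and under 4 other scalings (symbols), filled where the adjusted p was under 0.05. *Sla*, *Ubash3a* and *Thy1* are filled under each scaling, and *Cd3d*, *Cd3g*, *Cd4* and *Nck1* only as deposited and after median centring.

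A further 32 measured genes of T cell receptor signalling were listed from general knowledge but with earlier results known, and form no independent test. Of these 14 fell (43.8%, beside 9.49% of all genes and 18.3% of those above the median signal) and 0 rose, with 0 higher at an unadjusted p under 0.05. Their median difference was -0.62, beside -0.40 for genes above the median signal. After quantile normalization 7 of the 32 were lower (3.76% of all genes), with a median of -0.29, and after cyclic loess 7 (4.49%), with a median of -0.30. Of the 32, 31 lay above the median signal, and the share called among such genes was not counted after rescaling. With arrays centred on brighter genes 7 were lower (4.67%) and 4 higher (35.7%). The median of the 32 genes was then -0.022, beside 0.20 for genes above the median signal. *Sh2d1a*, which encodes the adaptor SAP of the SLAM receptors, read 9.94, 10.54 and 9.70 in *Rbx1*&*Sag*-deficient arrays, against 12.67, 13.20 and 12.68 in control arrays (-2.79, adjusted p = 0.000899 from limma). Its groups lay over 2 log2 units apart. The transmembrane adaptors *Lax1* (-1.81, adjusted p = 0.00237) and *Sit1* (-2.36, adjusted p = 0.0107) and the phosphatase *Ptpn22* (-1.38, adjusted p = 0.0201), all known to restrain receptor signals, fell as well. So did *Rhoh*, a GTPase that helps *Zap70* to the receptor (-1.83, adjusted p = 0.00451), *Tespa1*, which acts in receptor signalling of thymocytes (-2.07, adjusted p = 0.0089), the transcription factor *Nfatc1*, a target of the calcium signal (-1.94, adjusted p = 0.0108), and *Wipf1*, the partner of *Was* (-1.22, adjusted p = 0.0123). The other 6 that fell were *Grap*, *Ptpn11*, *Dok1*, *Ptpn6*, *Cbl* and *Dok2*, with differences of -1.28 to -0.84. *Dok1*, at -1.28, read 3.67 to 4.32 in *Rbx1*&*Sag*-deficient arrays, around their medians, where background limits what can be read. *Cbl*, the ligase that the Src-like adaptors recruit, read 12.07, 12.09 and 11.61 in *Rbx1*&*Sag*-deficient arrays, against 12.70, 12.77 and 12.83 in control arrays (-0.84, SE 0.22, adjusted p = 0.0403 from limma). Of the 18 not called, *Ptprc*, which encodes the phosphatase CD45, and the costimulatory receptor *Cd28* differed by -0.04 and -0.05 (adjusted p = 0.922 and 0.939). The ligase *Cblb*, also known to restrain receptor signals, differed by -0.17 (adjusted p = 0.700 from limma).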

How the data were processed

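RNA of CD4+YFP+ Treg cells was hybridised to 6 Clariom S arrays, 3 per genotype. The authors used Expression Console 1.4, and the deposited values are log2 signals of 22206 probe sets. Algorithm, normalization, annotation and build: not given in the sources used here. Through the platform annotation 19572 probe sets had 1 symbol, 0 had several and 2634 had none. The brightest probe set per symbol was kept (67 left out), which gave 19505 genes, used as deposited. Genotypes were fitted in R 4.3.3 by limma 3.58.1 (lmFit, eBayes), two-sided, without covariates, with Benjamini-Hochberg adjustment over all genes. The fit was tested on simulated data. Paralogue pairs were compared with an exact permutation test. As mice were pooled, the p-values reflect the spread of pools, and the number of arrays limits the precision. Summed levels of marker lists are log2 of the summed linear signals. The alternatives were the methods' t-test, an intensity trend, robust moderation, array weights, median centring, quantile and cyclic loess normalization, a filter on dim genes, all probe sets, a replicate block, omission of single arrays and the genes of mixed role counted with either class. Centring on the genes above the median signal was chosen after seeing the data, as was rerunning the further signalling genes under all alternatives. The genes and lists were chosen with earlier results of these data known. Named are all members, and of the further signalling genes the 8 with the smallest p. *Tg*, *Grap*, *Ptpn11*, *Dok1*, *Ptpn6*, *Cbl*, *Cblb*, *Dok2*, *Ptprc*, *Cd28* and the single markers were named after their values were seen. Promoter sequences are those of RefSeq, GRCm38.p6.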

Additional observations from a re-analysis of the deposited data

How the results depend on the processing

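With 8 of the 37 genes lower as reported, the count was 0 with the methods' t-test after Benjamini-Hochberg adjustment (0.118% of all genes lower), 3 after quantile normalization (3.76%), 4 after cyclic loess (4.49%), 5 with the replicate block (10.3%), 4 after centring on the brighter genes (4.67%) and 2 to 7 with an array left out. For activators (5 lower) these counts were 0, 1, 1, 2, 1 and 0 to 4, and for negative regulators (3 lower) 0 with the t-test and 2 to 3 with an array left out. Against 0 higher as reported, 1 gene, the activator *Bcl10*, was higher with array weights, after quantile normalization and after cyclic loess, 2 activators (with *Cd247*) after centring on the brighter genes, and 0 to 1 with an array left out. With the replicate block *Cd3d*, *Cd3g* and *Cd4* missed the test (adjusted p = 0.0564, 0.0784 and 0.0538 from limma), and the same-numbered arrays deviated with correlations of 0.009, 0.109 and 0.021, so that the numbers were not taken as pairs. The further signalling genes, recomputed after seeing the data, had 14 lower as reported, 0 with the t-test, 7 each after quantile normalization, cyclic loess and centring on the brighter genes (4 higher there) and 4 to 13 with an array left out. Counting *Cd6*, *Sh2d2a* and *Themis* with either class changed no count. Without single arrays *Thy1* missed the test (adjusted p = 0.0573 without *Rbx1*&*Sag*-deficient replicate 1, 0.0723 without control replicate 1 and 0.0824 without control replicate 3) and so did *Sla2* (0.0571 without control replicate 3). The 37 genes held 4, 7 and 5 lower without *Rbx1*&*Sag*-deficient replicates 1, 2 and 3, beside 6.4%, 13.4% and 8.27% of all genes, and 3, 4 and 2 without control replicates 1, 2 and 3, beside 4.17%, 2.79% and 3.1%.

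Median centring moved the median of all genes to -0.14 and centring on the brighter genes moved it to 0.64, against 0.04 as deposited, and 35.7% of all genes were then called higher with centring on the brighter genes. Of 629 single-gene values under the alternatives, 524 kept their direction and side of the threshold, 51 fell short of it, 10 came to pass it and 44 changed sign, the last with adjusted p of 0.1 or more. Many of these values could not change sign. The t-test, intensity trend, robust moderation, filter on dim genes, all probe sets and replicate block leave the difference itself unchanged. Signs turned after median centring for *Cd2* (-0.10), *Lat* (-0.12), *Rasgrp1* (-0.11), *Themis* (-0.0033) and *Txk* (-0.10), and with array weights for *Txk* (-0.053). They turned after quantile normalization for *Fyn* (0.15), *Lcp2* (0.005), *Malt1* (0.012), *Pag1* (0.55), *Plcg1* (0.18), *Sh2d2a* (0.16), *Sos1* (0.32), *Tec* (0.021) and *Vav1* (0.39), and after cyclic loess for *Dgka* (0.069), *Fyn* (0.17), *Pag1* (0.51), *Plcg1* (0.23), *Sh2d2a* (0.15), *Sos1* (0.33) and *Vav1* (0.44). After centring on the brighter genes they turned for *Dgka* (0.50), *Fyn* (0.33), *Grap2* (0.17), *Lcp2* (0.18), *Malt1* (0.0033), *Pag1* (0.56), *Plcg1* (0.35), *Prkcq* (0.22), *Sh2d2a* (0.30), *Sos1* (0.40), *Tec* (0.38), *Ubash3b* (0.01), *Vav1* (0.53) and *Was* (0.053). With an array left out, values ran over 0 for *Cd2* (-0.0017 to 0.20), *Lat* (-0.093 to 0.18), *Pag1* (-0.09 to 0.01), *Rasgrp1* (-0.09 to 0.18), *Themis* (-0.15 to 0.36), *Txk* (-0.22 to 0.32) and *Vav1* (-0.12 to 0.035). Among the pairs, *Cd6* against *Cd5* changed by 0.029 after quantile normalization, by 0.10 after cyclic loess and by -0.16 to 0.057 with an array left out, *Dgkz* against *Dgka* by 0.079 after quantile normalization, *Tec* against *Txk* by -0.53 to 0.11 and *Grb2* against *Grap2* by -0.63 to 0.15 with an array left out. The cause was not tested. Signal near background limits *Was* and *Tec*.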
